A study of Mus musculus with 6 samples.

Results

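The genes of 8 families of developmental transcription factors, Hox, Pax, Lhx, Nkx, Dlx, Irx, Gata and the homologues of Drosophila sine oculis, were examined for acetylation of histone H3 at lysine 27 (H3K27ac) before and after loss of OCT4. Members were the protein-coding genes of these families in GENCODE vM21 on GRCm38, chosen by gene name, and a H3K27ac peak was assigned to a member when any of its annotated transcript starts lay within 5 kb of the peak. There were 94 member genes among 21951 coding genes, and 26 of them (27.7%) had a peak, against 11450 of all coding genes (52.2%). These 26 genes shared 36 of the 31131 peaks in the files. The rule itself uses gene names and distance, not measured values.

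The data are chromatin immunoprecipitation sequencing of H3K27ac in O4AID ESCs, a mouse embryonic stem cell line of strain 129SV in which both endogenous Oct4 alleles are disrupted and a doxycycline-repressed wild-type Oct4 transgene is kept off. In both groups the cells lived on OCT4 fused to an auxin-inducible degron (Oct4AID) and also made the auxin receptor Tir1, each from the constitutive CAG promoter, and were cultured in N2B27 with PD03, Chiron, LIF and doxycycline. The groups were 3 libraries of uninduced cells and 3 of cells given 500 μM indole-3-acetic acid (IAA), an auxin, for 1.5 h, which directs the tagged protein to the proteasome. The 6 libraries held no auxin-treated cells with untagged OCT4, so that an effect of IAA itself and of OCT4 loss cannot be told apart here, and OCT4 protein was not measured in them. The libraries held 31634480 to 39547452 reads. The share of those reads inside peaks was 6.63% to 7.12% in the uninduced libraries and 4.05% to 5.15% after IAA. Of marker genes, 8 of 9 for naive ESCs had a peak at a start, against 1 of 5 for trophoblast (Tfap2a), 1 of 5 for primitive endoderm (Gata6), 2 of 3 for ectoderm (Sox1, Pax6) and 1 of 3 for mesoderm (Tbx6).

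Hox proteins are homeodomain factors that specify position along the body axis, and their genes lie in 4 chromosomal clusters. Pax, Lhx, Nkx, Dlx, Irx, Gata and sine oculis type factors specify organ and cell lineages such as eye, neural tube, limb, muscle, heart and extraembryonic endoderm. In ESCs many of these genes are held silent by Polycomb complexes, which methylate the same lysine 27 of histone H3 that acetyltransferases of the CBP and p300 type acetylate at active promoters and enhancers.

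Stretches of the peaks that the results turn on were read from the GRCm38 reference of RefSeq on the forward strand, with each CpG dinucleotide in capitals and untranslated regions left out. The first is from the member peak with the highest uninduced signal, upstream of Hoxc12 (chr15:102932181-102932380, intergenic, 3 CpG). The next are from the peak with the largest decrease, in a coding exon of Nkx6-2 (chr7:139582119-139582318, 19 CpG), and from the peak with the smallest, at Hoxc10 and the start of a long Hoxc5 transcript (chr15:102967249-102967448, coding exon, 14 CpG). The label of that Hoxc10 stretch names both genes of the peak, although the annotated Hoxc5 span begins only at the right-hand end of the stretch. The last is from a peak that the authors marked as within 1 kb of a published OCT4 peak, in an intron of Pax6 (chr2:105676839-105676988, 5 CpG).
Hoxc12 upstream: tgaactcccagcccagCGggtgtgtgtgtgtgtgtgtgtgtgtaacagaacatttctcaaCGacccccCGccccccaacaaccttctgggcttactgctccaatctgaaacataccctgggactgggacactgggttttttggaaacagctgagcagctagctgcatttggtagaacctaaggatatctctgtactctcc
Nkx6-2 exon: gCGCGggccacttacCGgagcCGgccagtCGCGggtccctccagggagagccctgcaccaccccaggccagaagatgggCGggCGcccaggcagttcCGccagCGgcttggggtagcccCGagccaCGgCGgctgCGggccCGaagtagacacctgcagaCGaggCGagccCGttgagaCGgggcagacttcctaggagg
Hoxc10 and Hoxc5 exon: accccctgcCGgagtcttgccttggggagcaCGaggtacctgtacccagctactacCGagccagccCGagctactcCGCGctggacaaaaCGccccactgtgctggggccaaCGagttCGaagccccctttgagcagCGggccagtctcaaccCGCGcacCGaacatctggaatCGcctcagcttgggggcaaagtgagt
Pax6 intron: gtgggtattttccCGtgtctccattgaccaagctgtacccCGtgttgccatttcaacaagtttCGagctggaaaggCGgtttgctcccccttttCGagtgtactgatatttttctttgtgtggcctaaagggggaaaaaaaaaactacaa

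The octamer ATGCAAAT, the DNA word bound by the POU domain of OCT4, was looked for on both strands. It occurred in 1 of the 36 member peaks (2.78%), against 3.01% of all tested peaks and 2.39% of tested peaks at the starts of other coding genes. That peak was at Hoxa10 (chr6:52239802-52241186), and the octamer, in capitals, lay in a part of it annotated as untranslated.
Hoxa10 octamer: gcattccaaatATGCAAATtggccggccct
These 30 bases are chr6:52240715-52240744. In windows of 300 bases around the peak centres the octamer was in 0 of 36 member peaks, against 1.13% of all tested peaks. The SOX-type word ACAATG was likewise in 0 of the 36 windows, against 10.1% of all and 7.55% at other coding starts. Over whole peaks it was in 1 of the 36, the same Hoxa10 peak, against 6888 of the 26457 tested peaks. The homeodomain word TAATTA was in 1 of the 36 windows (2.78%, against 3.06% of all) and the GATA word AGATAA in 3 (8.33%, against 8.92%). Such short words recur by base composition, and their absence from a window says nothing of binding.

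The first question was which members carried H3K27ac in uninduced ESCs. Of the Hox genes, 10 of 11 in HoxA had a peak within 5 kb, with Hoxa13 the exception. HoxC had 8 of 9, with Hoxc9 the exception. HoxD had 1 of 9 (Hoxd9) and HoxB 0 of 10. Thus 18 of the 26 genes and 24 of the 36 peaks were in HoxA or HoxC.

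**Figure D1:**
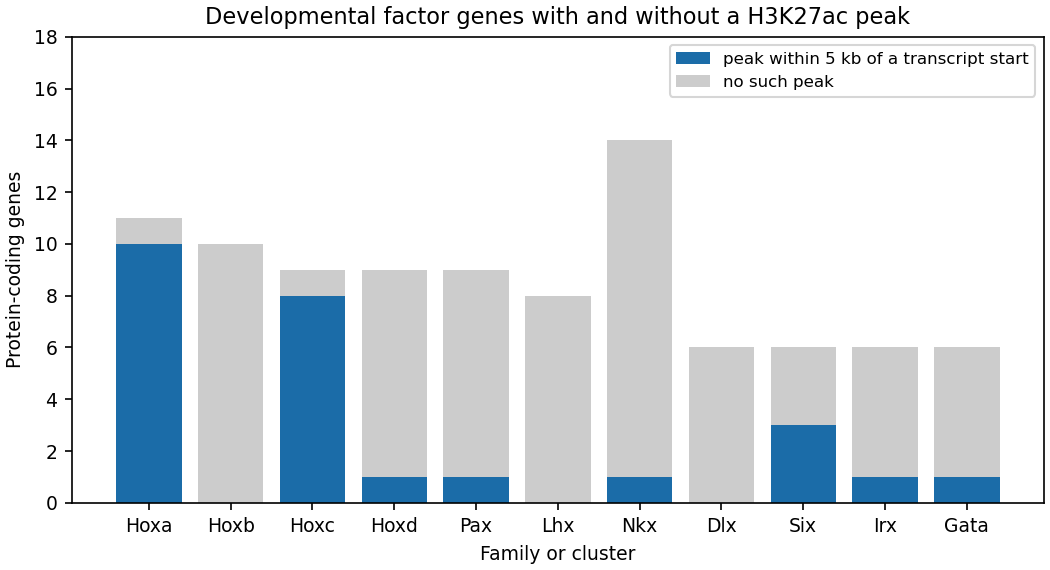
Number of protein-coding genes (y axis) in each Hox cluster or factor family (x axis), split into those with (blue) and without (grey) a H3K27ac peak within 5 kb of a transcript start. HoxA with 10 of 11 and HoxC with 8 of 9 stand beside HoxB with 0 of 10 and HoxD with 1 of 9.

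Outside the Hox clusters, 7 of 55 genes had a peak. They were Pax6, which specifies eye and forebrain, 3 of 6 sine oculis homologues, among them Six4 and Six5, Nkx6-2 of 14 Nkx genes, Irx3 of 6 Irx genes, and Gata6, a factor of primitive endoderm, of 6 Gata genes. None of the 8 Lhx and 6 Dlx genes had a peak within 5 kb. For the 68 genes without one, the nearest peak lay at a median of 51162 bp from a start, with 8 genes within 10 kb and 35 beyond 50 kb. The genes just outside the distance were Hoxd10 at 5781 bp and Hoxd8 at 6336 bp, and those just inside were Hoxa11 at 4609 bp and Hoxa2 at 3692 bp. Peaks were called on uninduced cells alone, so that acetylation gained after IAA at these 68 genes could not appear in the files.

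The peaks sat inside or beside the genes rather than across their start. Of the 36, 8 covered a member's start, 12 lay upstream and 16 downstream, and 28 were within 1 kb of a start. Each peak was given 1 annotation, the first that it overlapped in the order untranslated region, coding exon, noncoding exon and intron. By that order 11 counted as untranslated regions, 10 as coding exons, 6 as exons of noncoding transcripts, 6 as introns and 3 as intergenic. An annotated start of a coding gene was covered in 22.2% of member peaks, against 54.0% at other coding genes. In the dense HoxA and HoxC clusters 1 peak can be near several starts, and 10 of the 36 peaks were shared by more than 1 member, giving 47 pairs of peak and gene. Antisense and noncoding genes such as Irx3os had the nearest start at 5 of the 36 peaks; ChIP signal cannot be assigned to a strand.

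Member peaks were shorter, lower and richer in GC than peaks at the starts of other coding genes. Their median length was 551.5 bp, against 785 bp, and their median uninduced signal 2.20 RPKM (reads scaled to peak length in kb and to library size, with a range of 1.48 to 4.36), against 2.80. Median GC content was 61.7%, against 56.5% at other coding starts and 52.9% over all tested peaks. The ratio of observed to expected CpG had a median of 0.630, near the 0.622 of other coding starts and above the 0.358 of all tested peaks. In the 300 bases around the gene start (250 upstream, 50 downstream), the median CpG ratio was 0.721 for the 26 genes with a peak and 0.644 for the 68 without. These are descriptions, since neighbouring members share peaks and sequence.

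Across the HoxA cluster, 14 peaks covered 8.22% of the span, and across HoxC (chr15:102921103-103036852) 14 peaks covered 7.48%. HoxB (chr11:96194316-96368256) had 3 peaks over 1.45% of its span, none within 5 kb of a member's start, and HoxD (chr2:74668310-74765142) had 1 over 0.593%. The length-weighted mean signal over all HoxA peaks was 2.53, 2.48 and 2.33 RPKM in uninduced replicates 1, 2 and 3, and 1.88, 1.52 and 1.38 RPKM in IAA replicates 1, 2 and 3. The 3 IAA libraries were all below the 3 uninduced ones. Over HoxC the values were 2.75, 2.76 and 2.43 RPKM in uninduced cells and 2.13, 1.88 and 1.66 RPKM after IAA, again without overlap. On the log2(RPKM) scale these differences were -0.63 for HoxA and -0.49 for HoxC, which relative to the median tested peak of each library were -0.05 and 0.09, so that HoxC changed sign under that scaling.

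**Figure D2:**
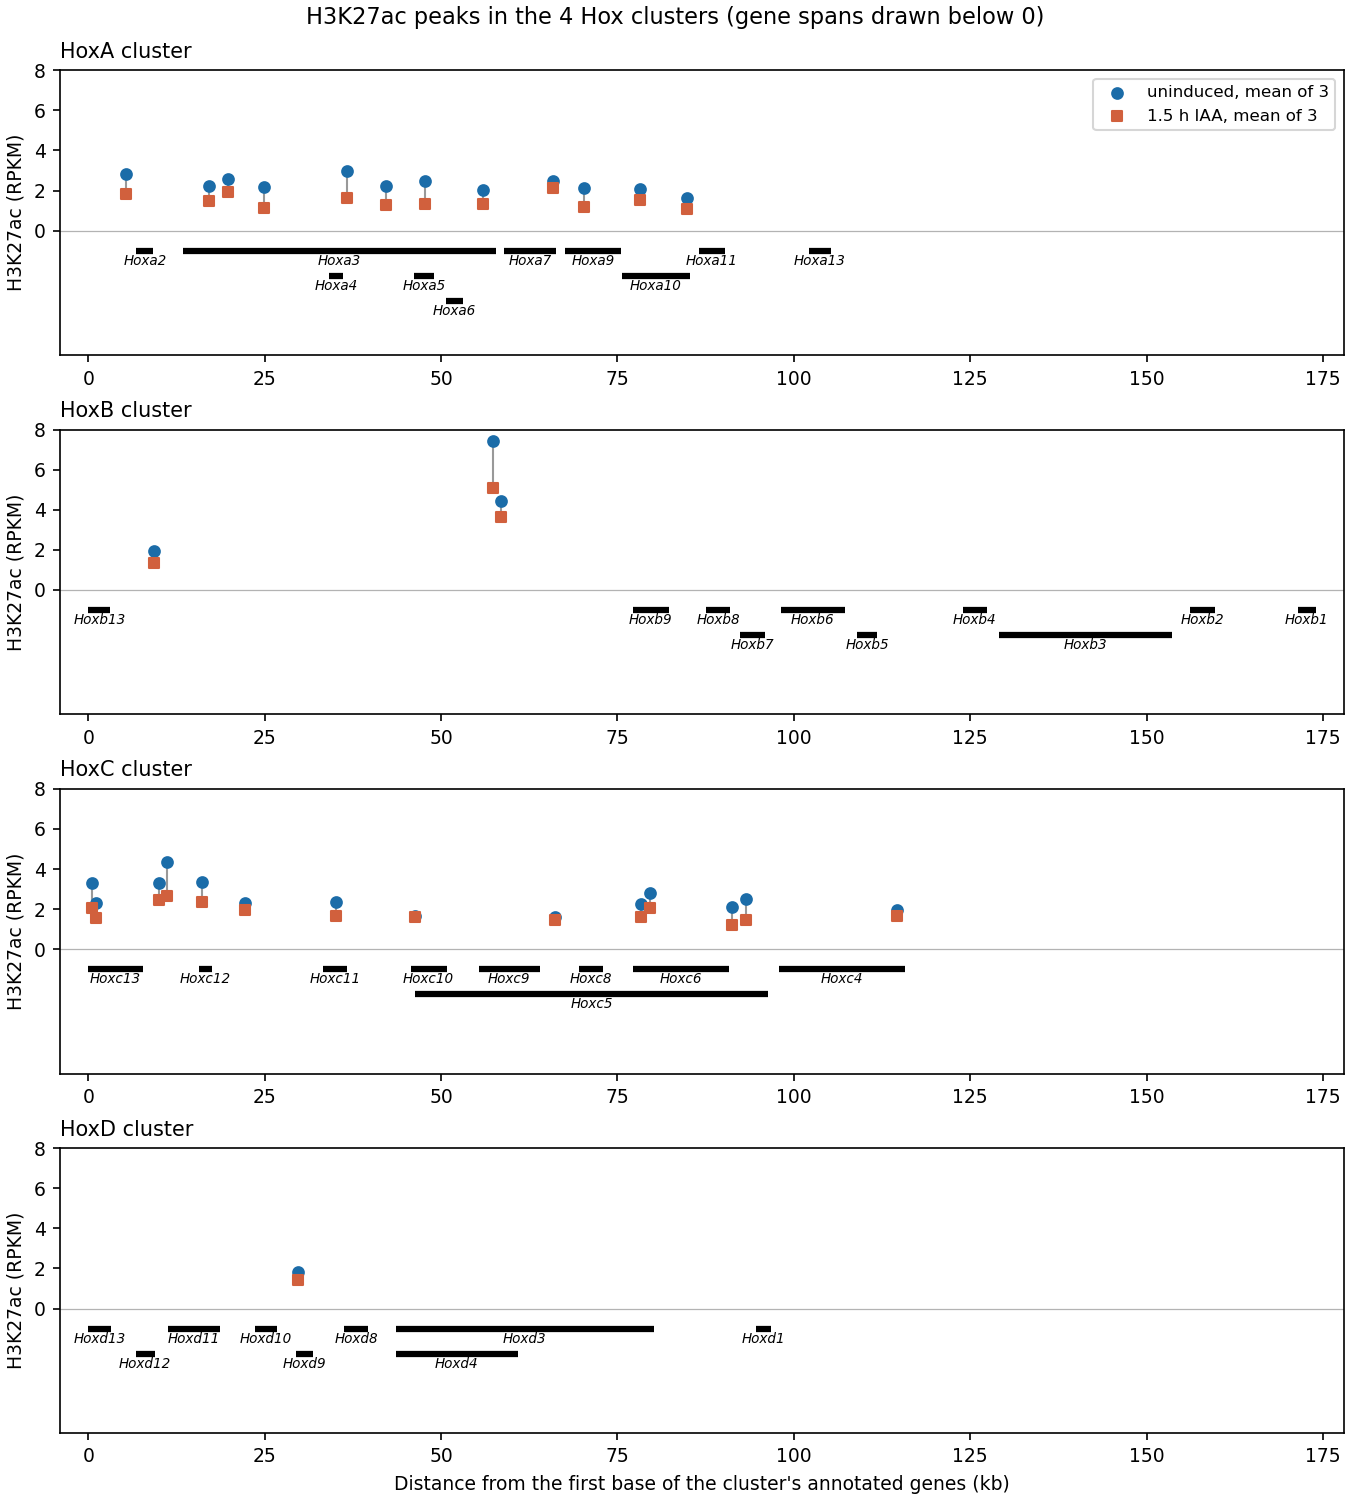
Mean H3K27ac signal in RPKM (y axis) of each peak in the 4 Hox clusters, against distance in kb from the first base of the cluster's annotated genes (x axis); blue circles are the mean of 3 uninduced libraries, orange squares the mean of 3 IAA libraries, and black bars below 0 are gene spans. Peaks run along HoxA, of whose 14 peaks 12 are drawn, and HoxC, with 14, while HoxB holds 3 and HoxD 1, and each IAA mean lies below its uninduced mean.

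The second question was how these peaks compared between uninduced and IAA-treated cells. Every peak with at least 0.5 RPKM in the authors' mean of either condition, 26457 in all and all 36 member peaks, was tested on log2(RPKM + 0.1) with limma. Peaks were called on these uninduced libraries alone, which by itself favours lower values after IAA. This selection bears on the counts, estimates and p-values below, for members and all tested peaks alike, and its size was not tested. After IAA, 25 of 36 member peaks fell (69.4%) and 0 rose at an adjusted p under 0.05. Over all tested peaks 68.2% fell and 0.0605% rose, so that the members' share was close to the background. For 20 member peaks (55.6%) the 3 IAA values were all below the 3 uninduced values, against 71.2% of all tested peaks. The count rested on single libraries, falling to 12 without uninduced replicate 2 (33.3%, with 46.5% over all peaks), 13 without uninduced replicate 1 (36.1%, with 39.2%) and 16 without IAA replicate 2 (44.4%, with 57.8%).

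All 36 estimates were below 0, with a median of -0.56 (quartiles -0.74 and -0.41) and a range from -0.96 to -0.05. The median was -0.55 over all tested peaks and -0.53 over the 14391 tested peaks at starts of other coding genes. Taken per library, the median of member peaks on the log2(RPKM + 0.1) scale was 1.24, 1.32 and 1.08 in uninduced cells and 0.73, 0.73 and 0.43 after IAA, a difference of -0.58 between group means. The same median minus that of other coding starts, which removes a factor common to a library, was -0.33 ± 0.062 in uninduced cells and -0.37 ± 0.095 after IAA (SD, n = 3), a difference of -0.04 that is smaller than either SD. Centring each library on its median tested peak removes a shift of 0.55 on this scale. With that scaling 0 of 36 member peaks were lower and 0 higher in limma, where 1.97% of all tested peaks were lower, and the smallest adjusted p of a member was 0.180. At an unadjusted p under 0.05 the counts under that scaling were 0 lower and 1 higher, and without it 26 lower and 0 higher.

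**Figure D3:**
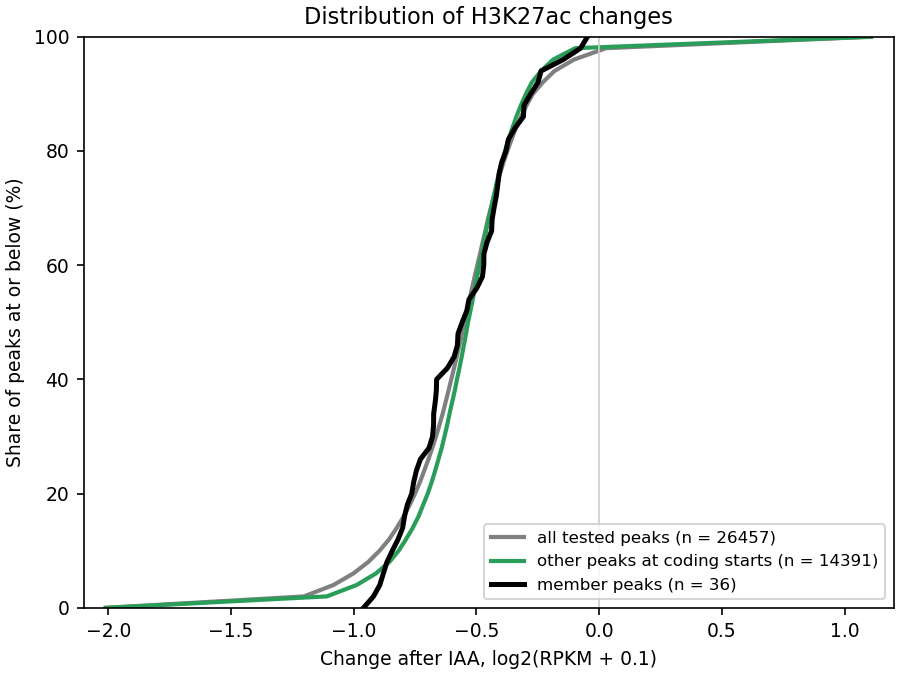
Cumulative share of peaks (y axis, %) at or below each change after IAA on the log2(RPKM + 0.1) scale (x axis) for the 36 member peaks (black), 14391 other peaks at coding starts (green) and all 26457 tested peaks (grey). The 3 curves cross 50% at -0.56, -0.53 and -0.55, and the member curve lies wholly below 0.

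The RPKM of a peak is relative to the total of its library, and without a spike-in a shift shared by all peaks cannot be told apart from the lower fraction of reads inside peaks given above. The median read number of a member peak was 50.5, 43.5 and 45 in the uninduced IPs (replicates 1 to 3), and 34, 31 and 25.5 in the IAA IPs, so that counting error alone was 14.1% to 19.8% of a value.

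Each gene was then summarised by the length-weighted mean RPKM of its peaks. Its differences are given on the log2 scale with nothing added, and an exact two-sided permutation test of 3 against 3 libraries cannot give a p below 0.1 for a single gene. In 18 of 26 genes the 3 IAA libraries were all below the 3 uninduced ones, against 76.9% of all coding genes with a peak. The median difference was -0.56 over the 26 genes and -0.54 over all 11450 coding genes with a peak. Relative to the median tested peak, whose difference on this scale was -0.58, 11 genes were below 0 and 15 above. The 8 genes whose groups overlapped were Hoxa7, Hoxa9, Hoxc8, Hoxc10, Hoxc13, Hoxd9, Six5 and Irx3. In all 8 the value of IAA replicate 1 was above the lowest uninduced value, and in 7 of them uninduced replicate 3 was the lowest of its group. IAA replicate 1 also had the highest share of reads in peaks among the IAA libraries (5.15%) and uninduced replicate 3 the lowest among the uninduced (6.63%), and the part of this in the overlaps was not tested.

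**Figure D4:**
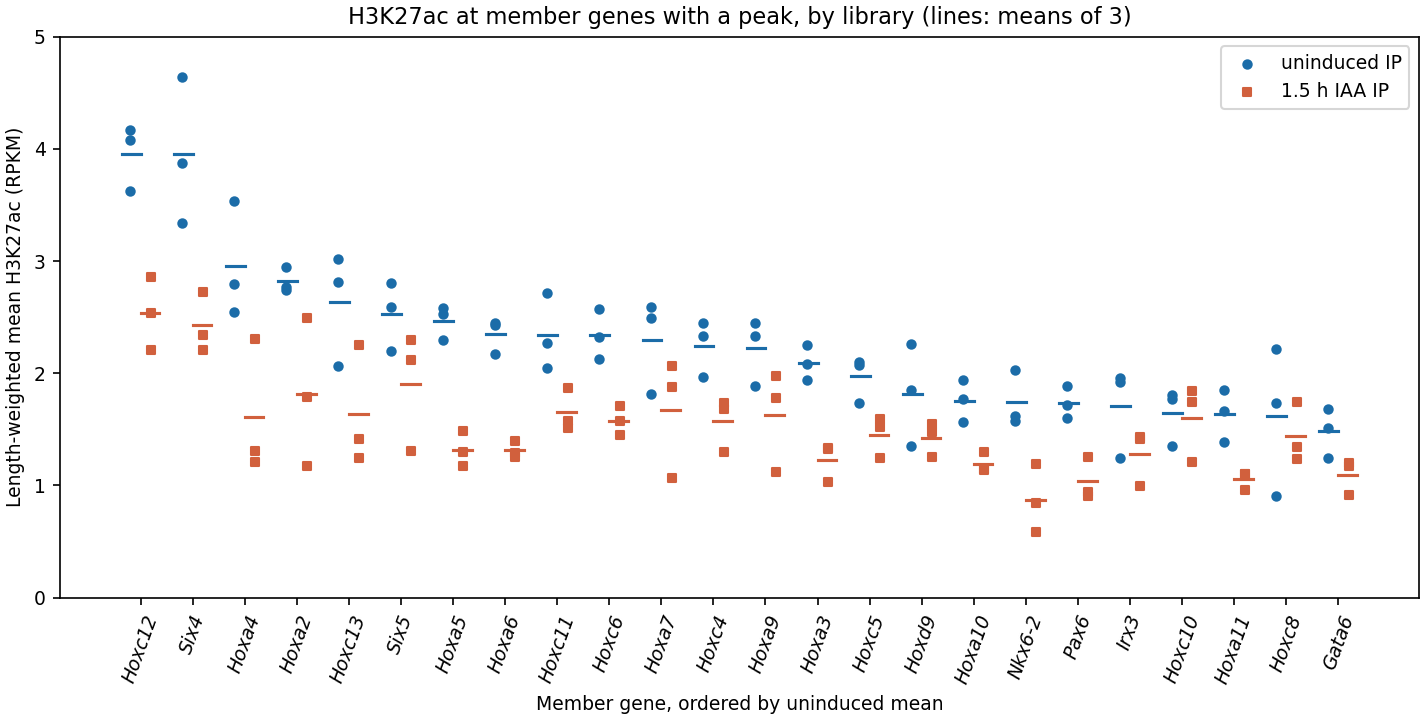
Length-weighted mean H3K27ac signal in RPKM (y axis) at 24 of the 26 member genes with a peak, ordered by uninduced mean (x axis); blue circles are the 3 uninduced libraries, orange squares the 3 IAA libraries and short lines the group means. Means run from 3.96 at Hoxc12 to 1.48 at Gata6 in uninduced cells, and the groups do not overlap in 16 of the 24 genes drawn.

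Hoxa2, which acts in the hindbrain and branchial arches, was at 2.94, 2.75 and 2.77 RPKM in uninduced replicates 1, 2 and 3 and at 2.49, 1.79 and 1.17 RPKM in IAA replicates 1, 2 and 3. The groups were apart, with IAA replicate 1 closest to the uninduced values, and its single peak fell in limma. The difference was -0.70, or -0.12 relative to the median peak, and without IAA replicate 3 it was -0.415.

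Hoxa4, Hoxa5 and Hoxa6, which pattern cervical and thoracic levels, were among the 4 members with the largest differences. Hoxa4 was at 3.54, 2.54 and 2.80 RPKM in uninduced cells and at 2.31, 1.21 and 1.31 RPKM after IAA, a difference of -0.93. Hoxa5 was at 2.58, 2.53 and 2.30 RPKM and then at 1.48, 1.18 and 1.29 RPKM, a difference of -0.91. The IAA values of Hoxa5 were tightly grouped, and all lay well under the lowest uninduced value. The Hoxa5 peak (chr6:52202735-52203961), 1 of the 2 that Hoxa6 shares with its neighbours, held 98 to 125 reads in uninduced libraries and 52 to 62 after IAA, and fell by 0.86 ± 0.19 (SE, adjusted p = 0.00175, limma with Benjamini-Hochberg adjustment). Hoxa6 was at 2.43, 2.45 and 2.17 RPKM and then at 1.40, 1.26 and 1.29 RPKM, a difference of -0.84. Relative to the median peak the 3 genes were at -0.35, -0.33 and -0.26, and no limma call remained.

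From Hoxa7 on, HoxA genes act in the thoracic to lumbosacral axis and the limbs. Uninduced means were 2.30 RPKM at Hoxa7, 2.22 at Hoxa9, 1.76 at Hoxa10 and 1.63 at Hoxa11. Their differences ran from -0.48 at Hoxa9 to -0.62 at Hoxa11. The groups were apart at Hoxa10 and Hoxa11 but overlapped at Hoxa7 and Hoxa9. These are not separate observations, since the only Hoxa11 peak is also 1 of 2 at Hoxa10. Likewise, both Hoxa7 peaks are among the 3 at Hoxa9. Without IAA replicate 3 the difference was -0.21 at Hoxa7 and -0.24 at Hoxa9, and with starts within 1 kb alone it was -0.27 and -0.85. The Hoxa10 peak with the octamer printed above held 1.39, 1.85 and 1.66 RPKM in uninduced cells and 1.10, 0.961 and 1.10 RPKM after IAA, and fell by 0.58 ± 0.21 (SE, adjusted p = 0.0245, limma). Relative to the median peak this was -0.02.

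In HoxC the highest signal was at Hoxc12 and Hoxc13, the most posterior genes of the cluster, of which Hoxc13 acts in hair and nails. Hoxc12 was the highest of all members at 4.17, 4.08 and 3.63 RPKM in uninduced cells and 2.86, 2.54 and 2.21 RPKM after IAA. Both its peaks fell, and the groups were apart. Hoxc13 was at 3.02, 2.82 and 2.07 RPKM and then at 2.25, 1.25 and 1.41 RPKM. All 3 of its peaks fell in limma, but IAA replicate 1 was above uninduced replicate 3. The peak upstream of Hoxc12 whose stretch is printed above (chr15:102931867-102932695), 4062 bp from the start, went from 4.64, 4.12 and 4.30 RPKM to 2.83, 2.58 and 2.61 RPKM, a decrease of 0.68 ± 0.15 (SE, adjusted p = 0.00219, limma).

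The smallest differences were also in HoxC. Hoxc10 was at 1.77, 1.81 and 1.35 RPKM in uninduced cells and at 1.74, 1.84 and 1.21 RPKM after IAA. The values of the groups were interleaved, and replicate 3 was the lowest in both. Its single peak (chr15:102966920-102967778), 1 of 3 assigned to Hoxc5, had an estimate of -0.05 ± 0.22 (SE, adjusted p = 0.837, limma), and after centring of the libraries the estimate was 0.51 (adjusted p = 0.180, limma). Hoxc8, with 1 peak 3181 bp upstream, was at 1.74, 0.906 and 2.22 RPKM and then at 1.34, 1.75 and 1.24 RPKM. Uninduced replicate 2 was the lowest of all 6 libraries there, on 10 reads. Leaving out each library in turn moved the difference from -0.18 to 0.14 at Hoxc10 and from -0.46 to 0.19 at Hoxc8, so that neither has a settled sign. Other HoxC genes (Hoxc4, Hoxc5, Hoxc6 and Hoxc11) had uninduced means of 1.97 to 2.34 RPKM and differences of -0.57 to -0.44. The groups were apart in all 4, and relative to the median peak all 4 were above 0, between 0.01 and 0.14. Hoxc4, Hoxc5 and Hoxc6 are not separate observations, since the peak at chr15:103014159-103014549 is assigned to all 3. The peak assigned to Hoxc4 alone (chr15:103035527-103035886) was at 1.83, 2.38 and 1.73 RPKM in uninduced cells and 1.39, 1.54 and 2.09 RPKM after IAA. Its groups overlapped, and it was not called (adjusted p = 0.289, limma).

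Hoxd9, the 1 gene of its cluster with a peak, was at 1.85, 2.26 and 1.35 RPKM in uninduced cells and at 1.48, 1.55 and 1.26 RPKM after IAA. Only IAA replicate 3 was below all uninduced values. The difference of -0.32 did not pass the test at its peak (adjusted p = 0.196, limma), and it was -0.15 without uninduced replicate 2 and -0.52 without uninduced replicate 3.

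**Figure D5:**
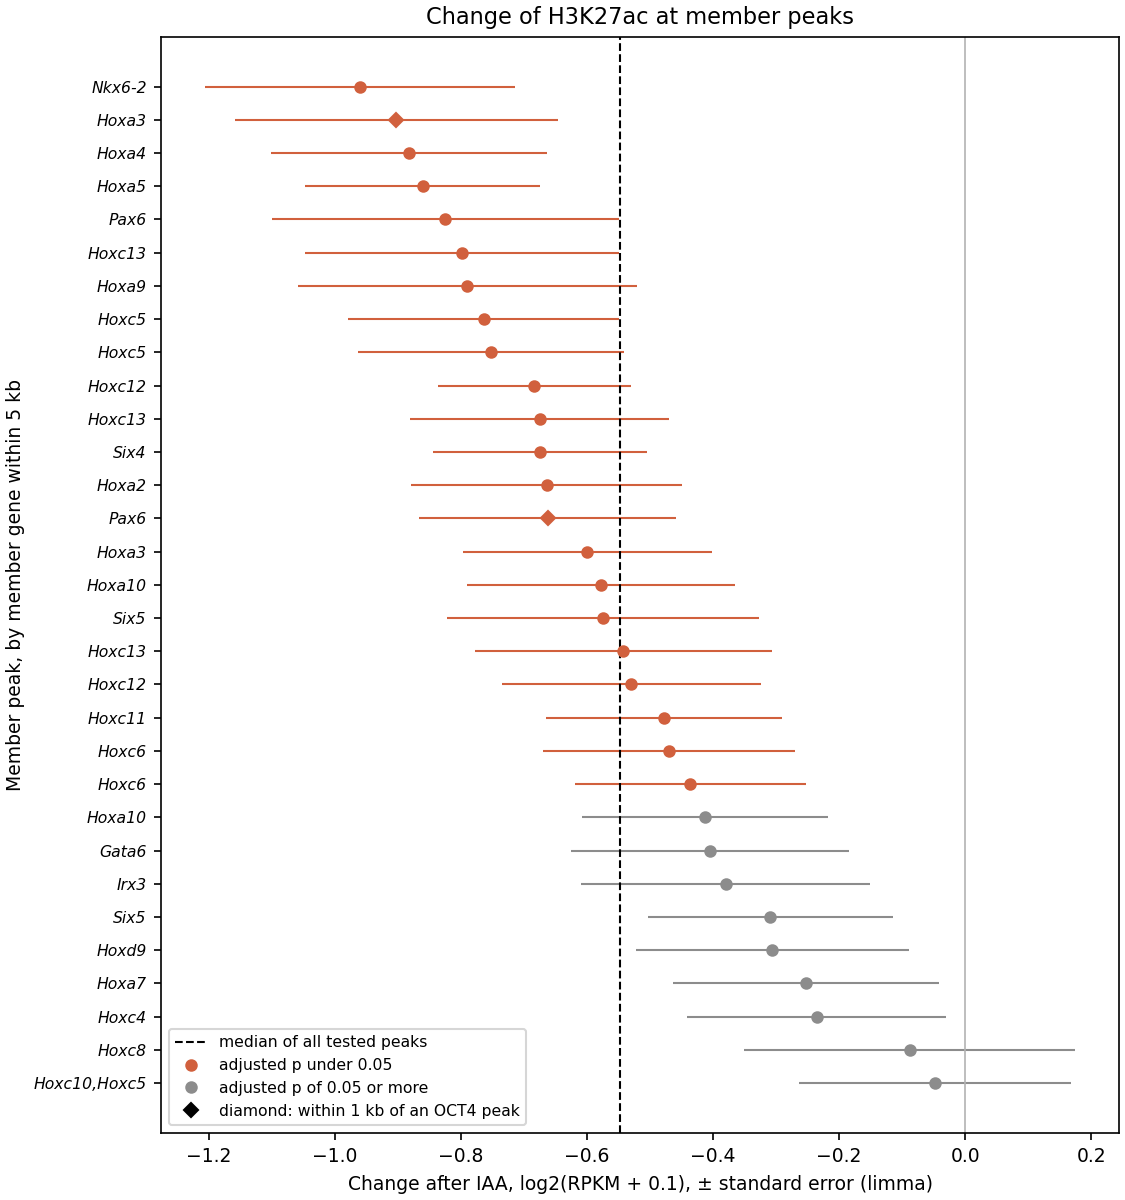
Change after IAA on the log2(RPKM + 0.1) scale with its standard error from limma (x axis) for 31 of the 36 member peaks, named by a member gene within 5 kb (y axis); orange marks an adjusted p under 0.05, grey the others, diamonds the 2 drawn peaks with the authors' OCT4 mark, and the dashed line the median of all tested peaks. Estimates run from -0.96 at Nkx6-2 to -0.05 at the peak shared by Hoxc10 and Hoxc5, with 22 in orange, and they lie on both sides of the dashed line at -0.55.

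Six4 and Six5 are homologues of Drosophila sine oculis, a family that acts with Eya coactivators in muscle and sensory organs. Six4 was at 3.88, 4.64 and 3.34 RPKM in uninduced cells and at 2.73, 2.34 and 2.21 RPKM after IAA. The groups were apart, and its peak fell by 0.67 ± 0.17 (SE, adjusted p = 0.00408, limma). Six5 was at 2.59, 2.80 and 2.20 RPKM and then at 2.29, 2.12 and 1.30 RPKM. IAA replicate 1 overlapped the uninduced range, and 1 of the 2 Six5 peaks fell. The difference at Six5 was -0.44, and -0.19 without IAA replicate 3.

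Of the 36 member peaks, 3 (8.33%) carried the authors' OCT4 mark, against 10.7% at other coding starts and 17.6% of all tested peaks. All 3 fell, where 68.2% of all tested peaks did. Pax6 had a marked peak (chr2:105676216-105677031) at 1.74, 1.75 and 1.74 RPKM in uninduced cells and at 1.15, 1.05 and 0.991 RPKM after IAA. The replicates of each group were close together there and far apart between groups, and the estimate was -0.66 ± 0.20 (SE, adjusted p = 0.0113, limma). The unmarked Pax6 peak fell by 0.82 ± 0.28 (SE, adjusted p = 0.0161, limma). For the whole gene the values were 1.72, 1.89 and 1.61 RPKM and then 1.26, 0.908 and 0.946 RPKM. The marked Hoxa3 peak (chr6:52180254-52180617), which overlaps 5730596B20Rik, Gm28308 and Hoxaas3 and whose nearest coding start is that of 5730596B20Rik, was at 2.16, 1.57 and 2.77 RPKM and then at 1.53, 1.15 and 0.715 RPKM. Its IAA replicate 1 was just below uninduced replicate 2, and its estimate was -0.90 ± 0.26 (SE, adjusted p = 0.00770, limma). Hoxa3 as a whole was at 2.08, 1.94 and 2.25 RPKM and then at 1.33, 1.33 and 1.03 RPKM. Relative to the median peak the marked peaks of Pax6 and Hoxa3 were at -0.11 and -0.35, with no call.

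Nkx6-2, a homeodomain repressor of the ventral neural tube and of oligodendrocytes, had the largest difference of all members. It was at 1.62, 2.03 and 1.57 RPKM in uninduced cells and at 1.19, 0.843 and 0.585 RPKM after IAA, a difference of -1.05 (-0.47 relative to the median peak). The groups were apart, but its peak of 296 bp held 18 to 19 reads in uninduced libraries and 6 to 12 after IAA. Its estimate was -0.96 ± 0.25 (SE, adjusted p = 0.00448, limma), which 7.33% of all tested peaks exceeded in size of decrease. Irx3, which acts in neural tube and limb, was at 1.92, 1.96 and 1.25 RPKM and then at 1.42, 1.43 and 0.995 RPKM, with overlap through uninduced replicate 3 and no call (adjusted p = 0.135, limma). Its difference of -0.41 was -0.62 without uninduced replicate 3 and -0.23 without IAA replicate 3. Gata6 had the lowest uninduced mean, 1.48 ± 0.22 RPKM against 1.09 ± 0.16 after IAA (SD, n = 3). Its groups were apart, with a difference of -0.44, or 0.14 relative to the median peak. Its peak across the start did not pass the test (adjusted p = 0.101, limma).

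Partners of these factors were read in the same way. Of 25 cofactor genes (Meis, Pbx, Pknox and Tgif homeodomain partners, Ldb and Lmo partners of Lhx and Gata factors, Eya and Dach partners of sine oculis homologues, and Zfpm partners of Gata factors), 13 had a peak, against 52.2% of all coding genes. Of their 28 peaks, 23 (82.1%) fell, against 68.2% of all tested peaks and 70.9% at other coding starts, with 0 that rose and a median of -0.64. The largest differences were at Meis2 (4.40 ± 0.29 to 1.93 ± 0.36 RPKM, mean and SD, n = 3; -1.20), Pknox2 (-0.94) and Eya1 (-0.82). The smallest were at Pbx3 (-0.32, with 0 of 2 peaks called), Pbx4 (-0.49) and Zfpm1 (-0.56). In 12 of the 13 genes the groups were apart, against 76.9% of all coding genes with a peak.

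Of 98 developmental factors of other families, 24 had a peak, against 52.2% of all coding genes. Of their 37 peaks, 30 (81.1%) fell, against 68.2% of all tested peaks, with 0 that rose and a median of -0.69. Large differences were at Tbx15 (2.26 ± 0.22 to 0.994 ± 0.55 RPKM, -1.40) and Sox21 (8.27 ± 0.62 to 3.67 ± 0.42 RPKM, -1.18; means and SD, n = 3). Small ones were at Tfap2a (-0.28) and Msx2 (-0.35). In 19 of the 24 genes the groups were apart, against the same 76.9%. Neither list shared a peak with the members. These lists were chosen with earlier results known, and no difference between them and the members was tested.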

How the data were processed

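H3K27ac ChIP-seq was analyzed in 3 uninduced and 3 IAA-treated libraries, grouped by their labels. The authors aligned reads to GRCm38 with Bowtie2 2.3.4.3, called peaks with MACS2 on pooled uninduced IPs, and deposited DiffBind RPKM values per library; the deposited pooled columns are the authors' mean of the 3 RPKM values. Versions of MACS2 and DiffBind are not given in the sources used here. The values give whole reads at a tolerance of 0.01 reads (100% of values), from which depth was taken, with peak length as end minus start. Coordinates are as deposited.

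Peaks with at least 0.5 RPKM in either authors' mean (26457 of 31131) were tested on log2(RPKM + 0.1), which understates changes of low peaks, in limma 3.58.1 (R 4.3.3; lmFit, then eBayes using its trend and robust options). P-values were adjusted over all tested peaks (Benjamini-Hochberg, threshold 0.05). The fit was also run on simulated data with independent noise and no shift common to a library. Since these data hold such a shift, that simulation cannot decide how far the calls here can be trusted. Nothing says that IPs came from separate cultures, so p-values measure the spread between these IPs, which may be technical. Gene values are length-weighted mean RPKM over peaks within 5 kb. Starts came from GENCODE vM21 and sequence from the RefSeq GRCm38 genome (pysam 0.24.0).

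The members and lists were chosen with earlier results of these data known. By rule, library values are given for the 8 genes with the highest uninduced mean, the 4 with the largest and the 4 with the smallest differences, genes with an OCT4-marked peak and any gene with a peak called higher; from each list the 3 largest and 3 smallest differences are named. Some genes that this rule takes are not reported here, and figures leave out peaks that only they have. Gata6, other HoxA and HoxC genes and single peaks were added after their values were seen. Alternatives were the pseudocount, RPKM threshold, scaling, distance, transcripts counted, limma settings, replicate block and each library left out in turn.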

Additional observations from a re-analysis of the deposited data

How the results depend on the processing

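Here the median over member peaks is the median per library compared between group means, -0.58 as reported. It was below 0 under every alternative run on the deposited scale, and near 0 once libraries were scaled to each other. Centred on the median tested peak, 0 member peaks were lower and the median over member peaks was -0.029. The median over genes was 0.026 and 2 of 26 genes were without overlap. Under quantile normalization 0 peaks were lower and the median over member peaks was -0.030. With that centring 15 of the 26 genes went from below to above 0, among them Hoxc10 (0.53), Hoxc8 (0.49), Hoxd9 (0.26), Irx3 (0.18), Gata6 (0.14), Hoxc5 (0.14), Six5 (0.14), Hoxa9 (0.10), Hoxa7 (0.080), Hoxc11 (0.079), Hoxc4 (0.059), Hoxa10 (0.029) and Hoxc6 (0.014). A pseudocount of 1 moved the median over member peaks from -0.58 to -0.39, and an adjusted p under 0.01 left 9 peaks. Without the RPKM threshold 17 were lower, and without trend and robust 20. With starts within 1 kb, 10 of 19 genes were without overlap. Leaving out each library in turn gave 12 to 26 member peaks lower, the low values being 12 without uninduced replicate 2, 13 without uninduced replicate 1 and 16 without IAA replicate 2. The number higher was 0 under every alternative, among peaks called on uninduced cells alone. Correlations of deviations between same-numbered libraries were -0.01, -0.09 and -0.06, and no sample correlated best with its own number. The replicate block gave 25 lower. A shift common to a whole library does not enter these correlations, so they cannot decide whether the numbers pair the samples. The share of reads in peaks fell from replicate 1 to 3 in both groups (7.12%, 6.91% and 6.63% uninduced, 5.15%, 4.68% and 4.05% after IAA). Depth limits single peaks, the shallowest of which held 6 reads in 1 library.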

Other observations

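The HoxB span held 3 peaks that met no member's start within 5 kb. The pair at the noncoding gene Gm53, 19167 and 18339 bp from Hoxb9, had uninduced means of 7.45 and 4.41 RPKM. The highest mean of a member peak was 4.36 RPKM, upstream of Hoxc12. In uninduced replicate 2 the second of the pair, at 3.75 RPKM, was below that Hoxc12 peak, at 4.12 RPKM. The first (chr11:96251134-96252290) was at 7.72, 7.85 and 6.77 RPKM in uninduced replicates 1, 2 and 3 and at 5.83, 5.23 and 4.17 RPKM in IAA replicates 1, 2 and 3, an estimate of -0.55 ± 0.16 (SE, adjusted p = 0.00746, limma). The second (chr11:96252528-96253118) was at 4.71, 3.75 and 4.77 RPKM and then at 3.78, 3.95 and 3.18 RPKM, and did not pass the test (estimate -0.27 ± 0.16, adjusted p = 0.130, limma). The third, 8978 bp from Hoxb13, had uninduced and IAA means of 1.92 and 1.33 RPKM and fell (adjusted p = 0.0384, limma).

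In HoxA, 3 further peaks lay at the noncoding genes Gm15050 and Hoxaas3, and 2 of them fell. In HoxC, 1 of 2 further peaks near Hoxc12 fell, at 5153 bp from its start.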
